A study of Mus musculus with 2 samples.

Results

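The miR-19 and miR-25/miR-92 seed families were followed through 5 mouse miRNAs, chosen by name: mmu-miR-19a-3p, mmu-miR-19b-3p, mmu-miR-92a-3p, mmu-miR-25-3p and mmu-miR-363-3p (the species prefix is left out from here on), out of 1881 mouse miRNAs on the array. The RNA came from exosomes, small vesicles that cells release, in the medium of the mouse lung tumour line LLC (Lewis lung carcinoma), which had spent 24 h in serum-free medium containing 5 µM of the DNA-damaging platinum drug cisplatin. Both samples, from independent experiments, belonged to 1 group and were hybridised to a one-colour (Cy3) array each, array 1 and array 2, and no untreated cells were analysed here. The values below therefore describe what these exosomes gave on the arrays and how far 2 experiments differed, not an effect of the drug, and no p-value was computed. Since RNA was taken from whole vesicle preparations, fewer vesicles and less miRNA per vesicle cannot be told apart.

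A miRNA finds its target mRNAs mainly through its seed, bases 2 to 8 from the 5′ end, and lowers their translation and stability. miRNAs of 1 seed family can therefore share many targets. The miR-19 family is known as a main oncogenic part of the miR-17/miR-92 cluster in B-cell lymphoma. The miR-25/miR-92 family represses Bcl2l11, which encodes the pro-apoptotic protein Bim, and miR-92a also represses integrin subunit alpha 5 in endothelium.

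The mature sequences are shown because they set which members can be told apart. They are from RefSeq (GRCm38.p6), run 5′ to 3′, and carry the seed in capitals.
miR-19a-3p: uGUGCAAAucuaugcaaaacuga
miR-19b-3p: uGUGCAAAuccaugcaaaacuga
miR-92a-3p: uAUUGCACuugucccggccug
miR-25-3p: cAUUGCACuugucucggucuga
miR-363-3p: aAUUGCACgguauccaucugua
The 3 remaining array miRNAs with the seed of miR-92a-3p are shown to place the members in the whole family.
miR-92b-3p: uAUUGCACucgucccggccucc
miR-32-5p: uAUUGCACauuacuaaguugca
miR-367-3p: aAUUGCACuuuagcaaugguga

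Of the array's miRNA names, 1608 matched a RefSeq mature sequence. Among those, 2 carried the miR-19 seed and 6 the miR-25/miR-92 seed, which are 0.124% and 0.373% of the names. miR-19b-3p and miR-19a-3p differed at 1 base of 23, given as C11U with miR-19b-3p first and positions counted from the 5′ end. No other array miRNA with a sequence lay closer than 8 edits to miR-19a-3p or 9 edits to miR-19b-3p. Over the 21 bases of miR-92a-3p, miR-25-3p differed at U1C, C14U and C18U, and miR-92b-3p at U10C and G21C, while miR-363-3p differed at 11 positions. Members of the miR-25/miR-92 group thus differ at base 1 or after the seed. Probe sequences were not analysed here, and whether a probe for one member also bound RNA of its close relatives was not tested.

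The members come from 3 clusters of hairpins. miR-19a-3p is made from chr14:115044048-115044070 (plus strand, GRCm38.p6), in the miR-17/miR-92 cluster. miR-19b-3p has 2 loci with the same mature sequence, chr14:115044358-115044380 on the plus strand and chrX:52741991-52742013 on the minus strand. miR-92a-3p likewise has 2 loci, chr14:115044476-115044496 on the plus strand and chrX:52741854-52741874 on the minus strand. Signal for either of these miRNAs can therefore not be assigned to chromosome 14 or X. miR-363-3p lies only on X, at chrX:52741697-52741718 (minus strand), as the last hairpin of the miR-106a/miR-363 cluster. miR-25-3p lies only at chr5:138165332-138165353 (minus strand), in the miR-106b/miR-25 cluster, which falls inside the span of Mcm7 (chr5:138164583-138172111), a gene for a replicative helicase subunit and the known host of this cluster.

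Of the 5 members, 3 were detected on both arrays: miR-19b-3p, miR-92a-3p and miR-25-3p. Over all 1881 miRNAs the share was 10.7% (201 miRNAs). The same 3 members passed when the summed signal had to exceed 6 times its error (4.52% of all miRNAs) and when the mean intensity had to exceed the negative controls by 3 SD (8.72%), but 0 did when most spots on each array were asked to be well above background (4.68%). A miRNA counted as detected where the summed signal of at least 1 of its probes exceeded 3 times its error, which is the mark the scanner software sets. For miR-19a-3p detection was limited to array 1, and miR-363-3p was at background on both. On array 1 alone 4 of the 5 were detected, against 16.6% of all miRNAs, and on array 2 alone 3 were, against 10.7%. Each seed family thus had at least 1 member with signal in both experiments.

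Both arrays lay on 1 slide and no spot was saturated. The 201 miRNAs detected on both arrays had a median difference of 0.78 log2 units (array 1 minus array 2, interquartile range 0.19 to 1.66). The 4 spike-in controls differed by 0.06 to 0.27 in the same direction. In the file headers the labelling metric is the mean of dmr_285 and dmr_31a, which differed by 0.27 and 0.08, and the hybridisation metric is the mean of dmr_6 and dmr_3, which differed by 0.11 and 0.06. Red cells are known to be rich in miR-92a and miR-25, and of 4 red cell markers (miR-144-3p, miR-144-5p, miR-451a and miR-486a-5p) 0 were detected on either array. These markers summed to an intensity of 10.2 on array 1 and 6.78 on array 2, and the brightest, miR-486a-5p, had a log2 signal of 2.42 and 1.32. Of 5 leukocyte markers, miR-142a-3p passed on array 1 alone (log2 signals of 4.21 and 1.95) and the rest on neither, with sums of 29.9 and 13.6, and of 7 epithelial markers 0 were detected. Over all 1881 miRNAs 16.6% were detected on at least 1 array, so counts of 0 in lists this short say little. Whether RNA of these cell types was present was not tested.

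Each member was read by 2 probes of 15 spots each, and intensities below are processed, background-subtracted values before any scaling between arrays. For the probe that was brighter on array 1, miR-19b-3p had a mean spot intensity of 286.6 ± 15.1 on array 1 (SD between 15 spots) and 74.6 ± 6.57 on array 2. The spots ran from 262.8 to 316.5 on array 1 and from 57.6 to 84.8 on array 2, so the arrays did not overlap. The log2 difference was 1.95 with a spot-based standard error of 0.04, which covers only the spread between spots of an array and not that between experiments.

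The other probe of miR-19b-3p was far dimmer, with 31.5 ± 4.56 on array 1 and 6.63 ± 2.27 on array 2 (SD, 15 spots). Its summed signal was 7.44 times its error on array 1 and 2.22 times on array 2, below the detection limit. On array 2 only 2 of its 15 spots exceeded 9.27, the mean plus 3 SD of the negative controls there. On array 2, then, miR-19b-3p was detected through 1 of its 2 probes, with a summed signal of 9.29 times the error.

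miR-19a-3p, the 1-base variant, gave 34.4 ± 4.60 and 16.4 ± 2.93 on its probes on array 1 (SD, 15 spots). On array 2 the same probes gave 7.44 ± 2.45 and 2.76 ± 2.59. The spot ranges of the arrays did not overlap for either probe. The summed signals were 7.72 and 5.03 times their errors on array 1 but only 2.47 and 0.94 times on array 2, where 3 of 30 spots lay above the negative-control limit. miR-19a-3p was therefore not detected on array 2, and no fold between the arrays is given for it. Over both probes, miR-19a-3p had a log2 signal of 4.55 on array 1 and 2.10 on array 2. miR-19b-3p had 6.56 and 4.43.

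**Figure D1:**
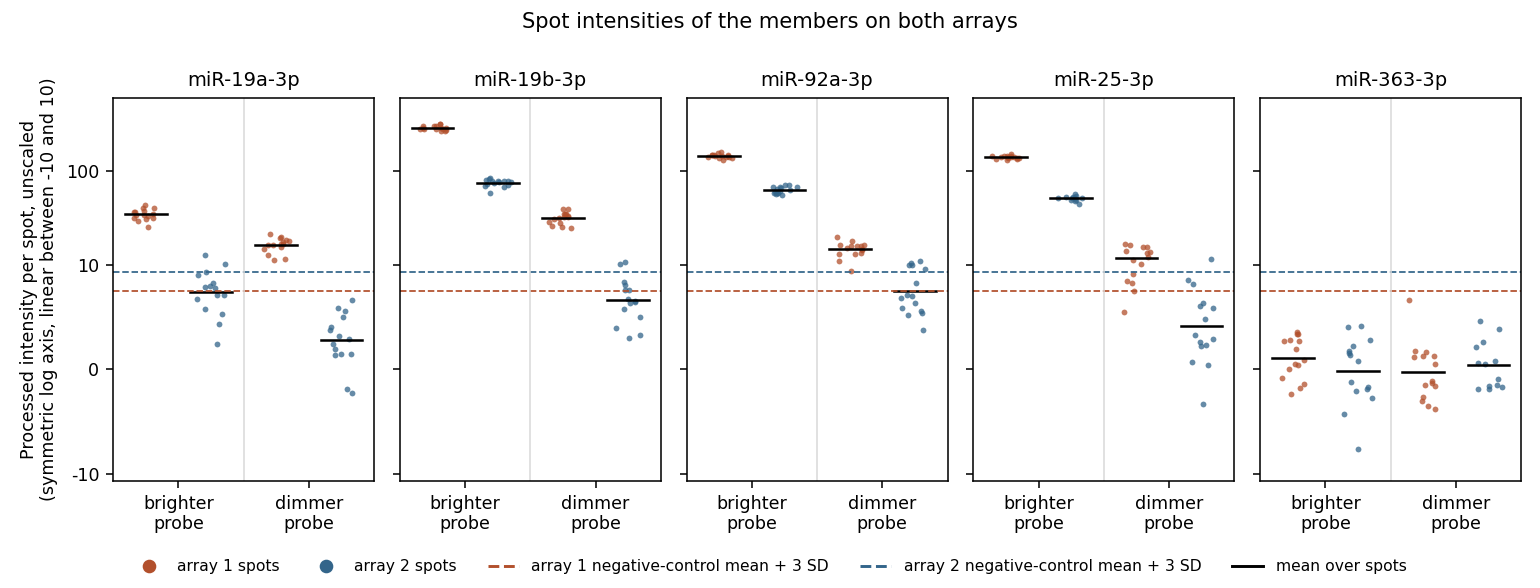
Processed intensity of every spot used, before scaling, by probe and array for the 5 members (symmetric log axis), with black bars for means over spots and dashed lines for the mean plus 3 SD of the negative controls (7.44 on array 1 and 9.27 on array 2). The brighter probes of miR-19b-3p, miR-92a-3p and miR-25-3p lie above the line on both arrays, the spots of miR-19a-3p do so on array 1 with 3 of 30 above it on array 2, and those of miR-363-3p lie below it throughout.

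In the miR-25/miR-92 group, miR-92a-3p had a mean intensity of 143.2 ± 7.00 on array 1 and 62.8 ± 5.01 on array 2 for its brighter probe (SD, 15 spots). The spots ran from 130.1 to 156.8 on array 1 and from 55.8 to 69.9 on array 2, without overlap, and the log2 difference was 1.19 (spot-based standard error 0.03). Its dimmer probe gave 14.8 ± 2.58 and 7.46 ± 2.23, with overlapping spots. That probe's summed signal was 4.67 times its error on array 1 and 2.48 times on array 2. As for miR-19b-3p, detection on array 2 rested on the brighter probe, at 9.05 times its error.

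miR-25-3p, the member encoded within Mcm7, had a mean intensity of 139.6 ± 5.39 on array 1 (SD, 15 spots) and 50.8 ± 3.31 on array 2 (SD, 12 spots, 3 being marked as outliers) for its brighter probe. The ranges were 130.9 to 152.2 and 43.96 to 57.2, again without overlap, with a log2 difference of 1.46 (spot-based standard error 0.03). The dimmer probe gave 11.8 ± 3.50 on array 1 and 4.14 ± 3.74 on array 2, with overlapping spots. Its summed signal was 3.86 times the error on array 1 and 1.40 times on array 2. All 3 miRNAs detected on both arrays thus passed on each of their probes on array 1 and on 1 of 2 on array 2. Over the 201 miRNAs detected on both arrays, 86.1% passed on every probe on array 1 and 59.2% on array 2. The probes of a member disagreed in brightness, by 3.20, 3.29 and 3.63 log2 units for miR-19b-3p, miR-92a-3p and miR-25-3p on array 1. The gap was 1.08 for miR-19a-3p there. Over the 175 miRNAs with 2 probes that were detected on both arrays, the median gap on array 1 was 0.65 (interquartile range 0.20 to 1.87). No gap of these members is given for array 2, where their dimmer probes were below the detection limit of 3 times the error.

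miR-363-3p, the X-linked member, stayed at the level of the negative controls. Its probes averaged 1.05 ± 2.02 and -0.30 ± 2.73 on array 1 and -0.20 ± 3.27 and 0.43 ± 2.28 on array 2 (SD between spots). The highest spot was 6.63 on array 1 and 4.63 on array 2, under the negative-control limits of 7.44 and 9.27, and 0 of 30 and 0 of 28 spots passed. No level can be given for it, since signal under these limits was not detectable.

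Levels were compared after a scaling that set the arrays level on the 75th percentile of the 201 miRNAs. It took out 1.71 log2 units, which moved the median difference of the 201 from 0.78 to -0.91, and a miRNA's signal is the mean over its probes. The scaled log2 signal of miR-19b-3p was 5.71 on array 1 and 5.28 on array 2, or 5.50 ± 0.30 (SD, n = 2). That of miR-92a-3p was 4.66 and 5.26, or 4.96 ± 0.42, and that of miR-25-3p was 4.45 and 4.50, or 4.48 ± 0.03 (SD, n = 2). On array 2 these means include dimmer probes below the detection limit. The SDs depend on the scaling: before it they were 1.51 for miR-19b-3p, 0.79 for miR-92a-3p and 1.12 for miR-25-3p. Intensities under 1 were set to 1 after scaling, and with that floor set before scaling the difference of miR-25-3p between the arrays was -0.12 in place of -0.05. Signals of different probes are not on a common scale, so the members are not ordered by amount.

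Before scaling, all 3 were brighter on array 1, by 1.95 log2 units for miR-19b-3p, 1.46 for miR-25-3p and 1.19 for miR-92a-3p on the brighter probes. The means over both probes gave 2.13, 1.59 and 1.11, but they include dimmer probes below the detection limit on array 2, so these sizes are approximate. On either measure all 3 were over 2-fold brighter on array 1, as were 42.3% of the 201 miRNAs by their means over probes. Whether the members' differences were smaller or larger in size than those of the array as a whole depended on the scaling. With sign kept, the members' median lay above that of the 201 with the reported scaling (-0.05 against -0.91) and without scaling (1.59 against 0.78). With the reported scaling 0 of the 3 were over 2-fold apart, against 46.8% of the 201. With the arrays level on the spike-in controls, an alternative added after seeing the data, the differences were larger. They were 2.04 for miR-19b-3p, 1.499 for miR-25-3p and 1.02 for miR-92a-3p, against a median of 0.68 over the 201. With the percentile taken over all miRNAs the differences were 1.79, 1.26 and 0.77, against a median of 0.45.

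On the brighter probes, miR-19b-3p differed between the arrays by 0.75 log2 units more than miR-92a-3p, and a factor common to a whole array cancels in that number. The means over both probes, which include the undetected dimmer probes, gave 1.02. The number was 0.47 after normexp background correction and 0.79 in the authors' deposited table. Both miRNAs have the same 2 host clusters and sit side by side in each. With 1 array per experiment, the 0.75 has no replicate check.

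**Figure D2:**
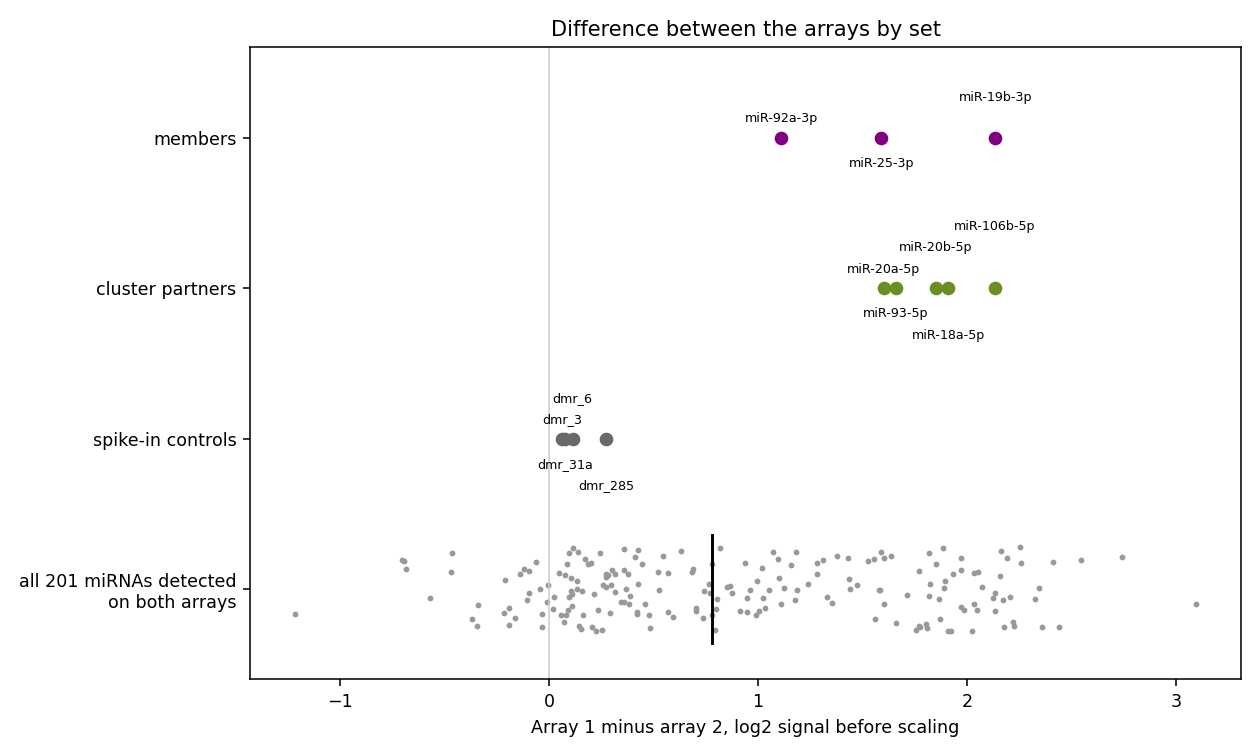
Array 1 minus array 2 in unscaled log2 signal (mean over probes) for the 3 members detected on both arrays, the 5 cluster partners detected on both, the 4 spike-in controls and all 201 miRNAs (grey points, bar at their median of 0.78). Members lie between 1.11 and 2.13 and partners between 1.60 and 2.13, to the right of the spike-in controls at 0.06 to 0.27.

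The 3 seed relatives, miR-92b-3p, miR-32-5p and miR-367-3p, were detected on neither array, although miR-92b-3p differs from miR-92a-3p at 2 of the 21 bases compared. Its log2 signals were 1.93 on array 1 and 2.13 on array 2. The negative-control limits correspond to 2.90 and 3.21, though they are set on mean intensity and not on a mean of log2. The 7 opposite strands of the members' hairpins (miR-19a-5p, miR-19b-1-5p, miR-19b-2-5p, miR-92a-1-5p, miR-92a-2-5p, miR-25-5p and miR-363-5p) were also detected on neither array, with log2 signals of 0.12 to 0.60 on array 1 and 0.20 to 0.49 on array 2. The 5p arms of the miR-19b and miR-92a hairpins differ between chromosomes 14 and X, so they could have marked the locus, but none of them was detected. For each detected member the 3p arm was thus the only arm of its hairpin that was detected.

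The cluster partners carry the miR-17 or miR-18 seed on their 5p arms, and miRNAs with the miR-17 seed are known to repress Cdkn1a, a brake on the cell cycle. Of the 15 partners analysed, 5 were detected on both arrays (33.3%, against 10.7% of all miRNAs, with stricter rules given below). These were miR-20a-5p with a scaled log2 signal of 5.97 ± 0.08, miR-106b-5p with 4.05 ± 0.35, miR-20b-5p with 3.62 ± 0.14, miR-18a-5p with 3.39 ± 0.20 and miR-93-5p with 2.61 ± 0.21 (SD, n = 2). miR-17-3p was detected on array 1 only, and the other 9 on neither array, among them miR-17-5p at log2 signals of 0.55 and 0.15. Before scaling the 5 detected partners were brighter on array 1 by 1.60 to 2.13, with a median of 1.85. On array 2 the log2 signals were 3.02 for miR-106b-5p, 2.73 for miR-20b-5p, 2.48 for miR-18a-5p and 1.92 for miR-93-5p. These means of log2 over probes lie under 3.21, the log2 of the negative-control limit there, so their levels and differences are approximate. The limit itself is set on mean intensity, and by that measure 2 of the 25 relatives passed on both arrays. A mean of log2 under 3.21 is therefore not by itself a failure of that rule. miR-20a-5p had 5.17 on array 2.

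By locus, and counting only arms with a RefSeq entry, the miR-106b/miR-25 cluster had 6 arms on the array, each from this locus alone, and 3 were detected on both arrays: miR-106b-5p, miR-93-5p and miR-25-3p, 1 for each of its 3 hairpins. Of the 9 arms made only by the miR-17/miR-92 cluster on chromosome 14, 2 were detected on both arrays, miR-18a-5p and miR-20a-5p. Of the 8 made only by the miR-106a/miR-363 cluster on the X chromosome, 1 was, miR-20b-5p, and miR-363-3p at its end was not. Sequences of the partners were not compared here. Whether the probes for miR-20b-5p also bound RNA of other partners, such as the brighter miR-20a-5p from chromosome 14, was not tested. Over all 26 listed relatives, of which 25 were analysed, 5 were detected on both arrays (20.0%, against 10.7% over the array). Under stricter rules the relatives did not exceed the array: 1 of 25 passed at 6 times the error (4.52% of all miRNAs), 2 of 25 at the negative-control limit (8.72%) and 1 of 25 by majority of spots (4.68%).

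**Figure D3:**
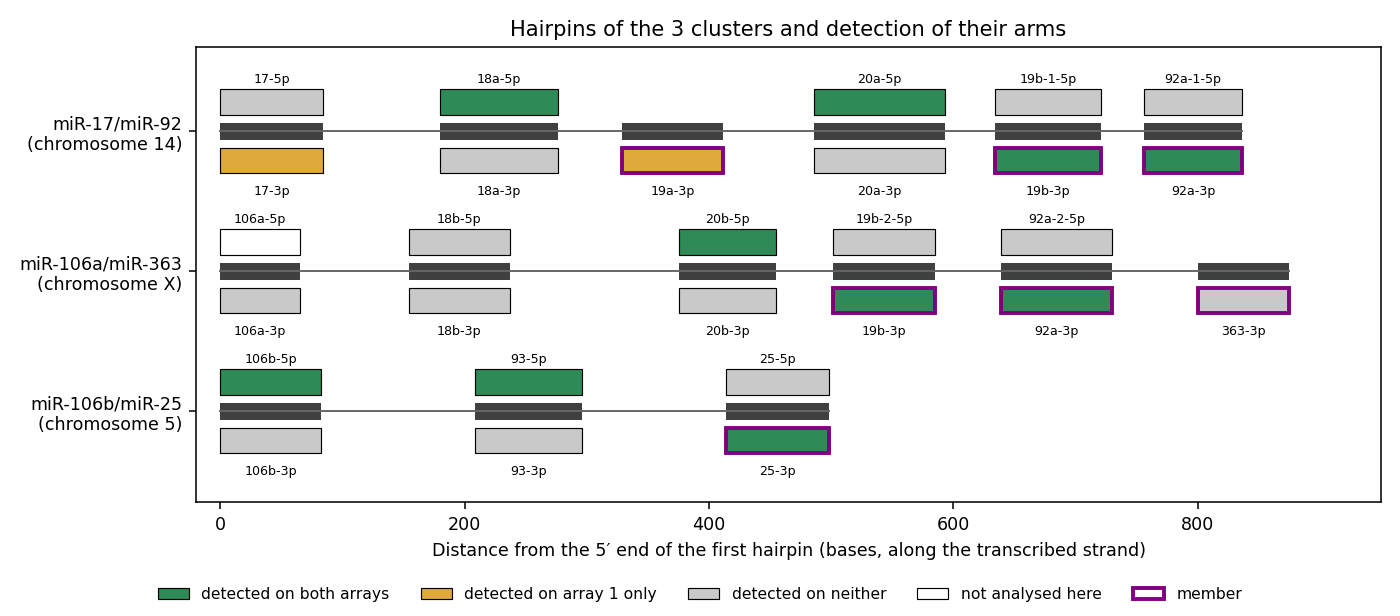
Hairpins of the 3 clusters drawn to scale by distance along the transcribed strand, with the 5p arm above and the 3p arm below each hairpin, coloured by detection; arms without a RefSeq entry are not drawn and members are outlined in purple. All members are 3p arms by the choice of names, and partners detected on both arrays are 5p arms. miR-19b-3p and miR-92a-3p appear in both upper clusters because they have 2 loci.

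The miRNAs outside these lists whose difference between the arrays lay closest to the members' median of 1.59 (means over probes) were miR-7042-5p (1.58), miR-125b-5p (1.58) and miR-16-5p (1.60). This likeness is a single number over 2 arrays and describes brightness alone.

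The deposited totals per miRNA differ from the probes for 2 members. On array 2 the scanner file lists a total of 26.6 for miR-25-3p, whereas its own detected probe sums to 10.8, and a total of 20.7 for miR-92a-3p, whereas its own detected probe sums to 13.3. The listed totals equal the own sums plus the listed totals of the detected names just before in alphabetical order, 15.9 for miR-24-3p and 7.35 for miR-877-3p. In both cases the first probe was the undetected one. On array 1, where all probes of both miRNAs were detected, listed and own sums were the same, at 32.1 for miR-25-3p and 33.5 for miR-92a-3p. miR-19b-3p was unaffected, at 67.5 and 15.8. Totals listed for miR-25-3p and miR-92a-3p on array 2 are therefore 2.47 and 1.55 times what their own probes give.

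In the authors' deposited table of log2 values, both arrays hold the same set of values, as after quantile normalization, so equal values there mean equal ranks on the arrays. Their centring is unknown here. In the authors' deposited table miR-19b-3p stood at 5.16 on array 1 and 4.59 on array 2. miR-92a-3p stood at 4.16 and 4.38 there, and miR-25-3p at 4.06, the same rank, on both. In the authors' deposited table miR-363-3p had the lowest value, -3.32, on both arrays. That value was also the median of the 1902 entries on each array, so many entries shared it. There, miR-19a-3p had 2.94 on array 1 and -0.83 on array 2. The last value lies above the lowest although miR-19a-3p was not detected on array 2, and such values are therefore not calls of detection.

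**Figure D4:**
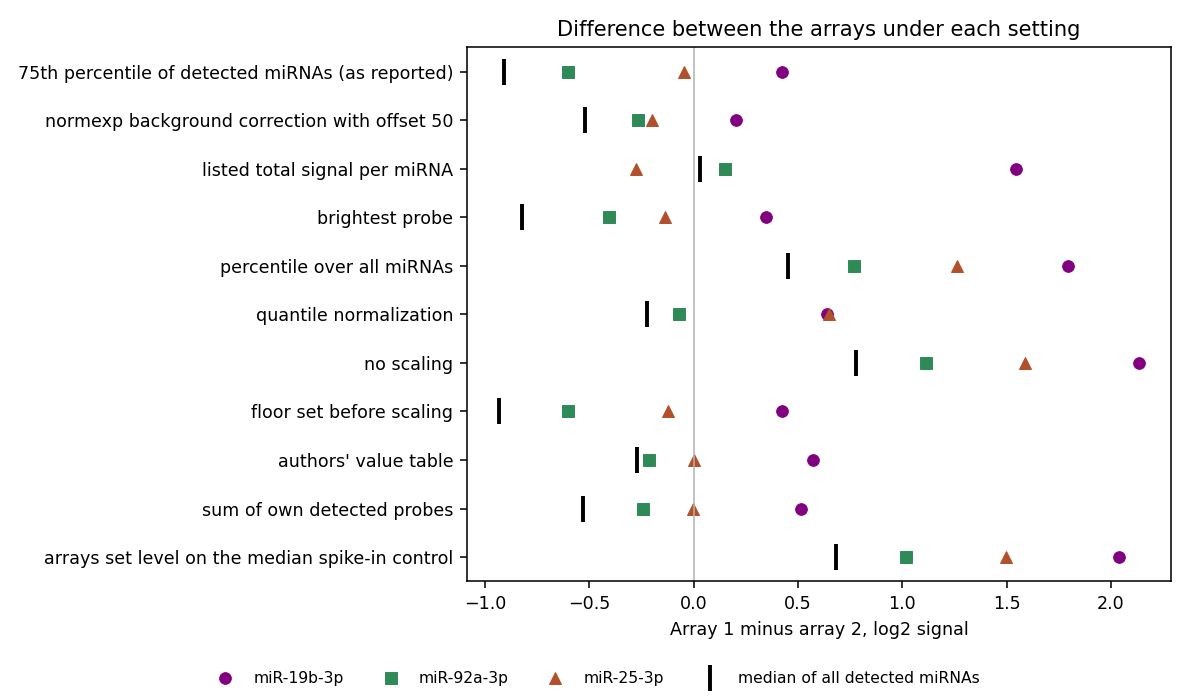
Array 1 minus array 2 in log2 signal for miR-19b-3p, miR-92a-3p and miR-25-3p and for the median of all 201 detected miRNAs, under the reported scaling and 10 alternatives. miR-19b-3p is above 0 in all of them, from 0.20 to 2.13, whereas miR-92a-3p and miR-25-3p lie on either side of 0, and miR-25-3p is at 0 in the authors' deposited table.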

How the data were processed

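Members, lists and tests were chosen with earlier results of these data known. Agilent Feature Extraction 10.7.1.1 was the software used, per the submitters' processing notes. Its deposited output gives linear intensity per spot, with background subtracted and spatial trends removed but no step between arrays, per the file headers. Per the labels, labelled cRNA was made with a linear-amplification kit, whereas the file headers name an miRNA protocol. The authors also deposited a table of log2 values, with the same set of values for both arrays. Detection marks, 0 or 1, are as deposited, and matched the rule of 3 times the error for 1902 of 1902 names.

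Outlier spots (1069 and 1152) and control spots were left out. Intensities were scaled by the 75th percentile of detected miRNAs (6.29 and 4.58, log2), set to at least 1, put on log2, and averaged over spots, then probes. Each array carried 56430 spots of 4415 probes for 1881 miRNAs, and 2 arrays limit the precision. Named were all members, all listed relatives, and the 3 outside miRNAs with the closest array difference. Of 26 relatives, miR-106a-5p was not analysed here. Alternatives were other detection rules, background corrections, scalings and signals. Python 3.11.15, numpy 2.4.6, pandas 2.3.3, matplotlib 3.10.9, R 4.3.3 and limma 3.58.1 (normexp) were used. The Python steps for scaling and differences were tested on simulated arrays (4 of 4 checks passed). In these the detection marks were given and detected miRNAs lay well above the floor, so neither detection at low signal nor normexp was tested.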

Additional observations from a re-analysis of the deposited data

How the results depend on the processing

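Detection of miR-19b-3p, miR-92a-3p and miR-25-3p on both arrays held with 6 times the error (4.52% of all miRNAs) and with a mean intensity above the negative-control limit (8.72%), outlier spots kept or not. It was lost for all members, 0 of 5, when most spots were asked to be well above background (4.68% of all miRNAs). On array 2 such spots numbered 15 of 30 for miR-19b-3p, 15 of 30 for miR-92a-3p and 12 of 27 for miR-25-3p, all of them on the brighter probe. Without 1 array the count of detected members was 3 to 4, and that of relatives 5 to 6. The relatives, 5 by the reported rule, numbered 1 by majority of spots, 2 by the negative-control limit and 1 by 6 times the error. The members' median difference between the arrays, -0.05 as reported, was 1.26 with the percentile over all miRNAs, 0.64 with quantile normalization, 1.59 without scaling and 1.499 with the arrays level on the spike-in controls, a setting chosen after seeing the data as was the sum of own detected probes. It lay between -0.20 and 0.15 in the other alternatives. The difference of miR-19b-3p was positive in 10 of 10 alternatives, that of miR-92a-3p in 4 and that of miR-25-3p in 4. The difference between the arrays was larger for miR-19b-3p than for miR-92a-3p by 0.47 with normexp and by 1.40 with the listed totals. The listed total of miR-92a-3p on array 2 includes that of miR-877-3p, and with the sum of own detected probes the number was 0.76. The mean signal of miR-19b-3p ran from 4.88 to 7.19, that of miR-92a-3p from 4.27 to 6.70 and that of miR-25-3p from 4.06 to 6.62. These alternatives differ in unit. Low signal on array 2 limits the dimmer probes. No paired analysis was possible because there was 1 group.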
